A study of Mus musculus with 30 samples.

Results

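Cone photoreceptor genes were followed across 30 mouse retina expression arrays. The genes were chosen as probe sets whose platform gene symbol was Opn1sw, Opn1mw, Arr3, Gnat2, Gngt2, Pde6c, Pde6h, Cnga3, Cngb3 or Thrb. Of these 10 genes, 8 had a probe set with that symbol alone, among 12393 genes measured. Gngt2 and Cnga3 were not analysed here. Where a gene had several probe sets, the brightest by its mean over the arrays is given first: Opn1sw, Arr3 and Pde6h each had another, dimmer probe set that served as a check.

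Each array held RNA from 1 retina of 1 pup, with 3 pups in each of 10 groups. In oxygen-induced retinopathy (OIR), pups with their nursing dams are kept in 75% oxygen for 5 days from postnatal day 7 (P7), which stops and prunes retinal vessels, and the retina becomes hypoxic on return to room air. The groups were untreated pups in normoxia, untreated OIR pups, and 8 injected OIR groups. The injected groups received saline, endothelial colony-forming cells (ECFC, 100000 cells), CD34+ cells (10000 cells) or both cell types together (110000 cells, the combination) into the vitreous, either at P5, before oxygen, or at P12, on return to room air. Every sample label gives P17 as the stage, whereas the design text of the series pairs injection at P5 with retinas taken at P12. Day of injection and a possible difference in day of collection therefore cannot be told apart in comparisons of P5 groups with others. The labels give no strain, sex or litter, and no untreated group was collected at P12 by its label.

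Cones are the photoreceptors of bright-light and colour vision, and in the mouse they are few beside the rods. Light changes an opsin, the opsin activates cone transducin, transducin releases cone phosphodiesterase from its inhibitory subunit, and the fall in cyclic GMP closes the cone channel. Arrestin then ends the signal. Mouse cones carry a short-wavelength opsin (Opn1sw), a middle-wavelength opsin (Opn1mw) or both, and the thyroid hormone receptor Thrb is needed for the middle-wavelength opsin and holds back the short-wavelength opsin. The opsins are arranged in opposing gradients over the retina. In whole-retina RNA, fewer cones and less RNA per cone cannot be told apart.

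Promoter sequences are shown for both opsins, because their balance is a result below, for Arr3, because its 2 probe sets differed, and for Thrb, which had the largest difference among the brighter probe sets in the comparisons of saline with OIR. Each is the 250 bases before a RefSeq start site, build GRCm38.p6, read 5′ to 3′ on the gene's strand. Capitals mark TAATC, the core bound by photoreceptor homeobox factors such as Crx, and AGGTCA, a nuclear receptor half-site, found on either strand (GATTA and TGACCT on the other strand). The windows are chr6:29380514-29380763 on the minus strand for Opn1sw, and on the plus strand chrX:74127216-74127465 for Opn1mw, chrX:100605247-100605496 for Arr3 and chr14:17981394-17981643 for Thrb.
Opn1sw: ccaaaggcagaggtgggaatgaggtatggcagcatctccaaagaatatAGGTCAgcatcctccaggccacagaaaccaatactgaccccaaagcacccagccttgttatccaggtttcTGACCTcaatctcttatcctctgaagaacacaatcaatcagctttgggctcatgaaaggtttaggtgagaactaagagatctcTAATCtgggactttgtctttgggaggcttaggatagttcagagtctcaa
Opn1mw: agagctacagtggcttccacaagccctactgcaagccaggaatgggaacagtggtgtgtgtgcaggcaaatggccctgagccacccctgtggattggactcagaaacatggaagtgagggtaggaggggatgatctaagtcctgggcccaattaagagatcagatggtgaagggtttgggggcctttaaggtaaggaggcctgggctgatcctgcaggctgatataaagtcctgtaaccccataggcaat
Arr3: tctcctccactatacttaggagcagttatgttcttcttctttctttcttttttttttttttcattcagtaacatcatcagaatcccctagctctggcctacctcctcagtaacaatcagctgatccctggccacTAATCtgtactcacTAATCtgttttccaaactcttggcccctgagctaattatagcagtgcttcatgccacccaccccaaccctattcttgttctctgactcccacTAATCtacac
Thrb: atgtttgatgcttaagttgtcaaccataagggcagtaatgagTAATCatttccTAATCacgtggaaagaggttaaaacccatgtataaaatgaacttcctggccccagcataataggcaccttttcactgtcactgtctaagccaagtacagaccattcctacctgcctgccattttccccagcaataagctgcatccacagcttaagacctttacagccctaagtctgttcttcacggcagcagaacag
Opn1sw held 1 TAATC and 2 AGGTCA matches. Arr3 held 3 TAATC matches, the nearest 10 bases before the start site of its window. The Thrb window shown, 1 of 2 listed for the gene, held 2 TAATC matches, and the other held 1 TAATC and 1 AGGTCA. The start sites of the Arr3 and Thrb windows shown lie within the gene spans given below. The Opn1mw window held no match to either motif. Of 32851 promoter windows of this length, 19.8% held TAATC and 14% held AGGTCA. The matches are letters in a window, and binding was not measured.

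In GRCm38.p6 the genes lie apart from each other except for Opn1sw (chromosome 6, 29376671 to 29380513) and Pde6h (chromosome 6, 136952218 to 136963485), and Opn1mw (X, 74127466 to 74150756) and Arr3 (X, 100605480 to 100618493), which share chromosomes. Gnat2 lies on chromosome 3 (108086788 to 108101432), Cngb3 on chromosome 4 (19280850 to 19510623), Thrb on chromosome 14 (17659225 to 18040097) and Pde6c on chromosome 19 (38132781 to 38183955). The build of the array annotation is not given in the sources used here.

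Several measures of the arrays moved with the groups. The 18 hybridisation control probe sets averaged 13.2 to 13.65 (log2) on the 12 P12 arrays and 11.86 to 12.96 on the other 18. The 3′ minus 5′ signal of the GAPDH control was 1.03 to 1.22 on P12 arrays and 1.22 to 1.85 on the others, with no overlap before rounding. The value of 1.85 was that of normoxia replicate 3 alone, and the next highest was 1.51 (ECFC at P5, replicate 3). Injection at P12 and these array measures therefore cannot be told apart in comparisons of P12 groups with others. The mean of 12 lens genes was 7.46 to 14.1 on P5 arrays, 6.03 to 7.09 on P12 arrays and 5.99 to 9.08 on untreated arrays. P5 and P12 arrays did not overlap in this mean. A fit with it as a covariate cannot tell lens signal from day of injection. The mean of the pigment epithelium genes was 7.90 to 10.5 on P5 arrays and 7.68 to 8.43 on the others. Rod genes were high on all arrays, the mean of 13 of them lying between 12.96 and 13.35. All 8 cone genes lay above the level of Y-linked genes on the 14 arrays with high Xist (3.61 to 5.41). Arrays with high Xist were spread unevenly over the groups. For the combination, Xist was high on every P5 array and on no P12 array. Sex was not in the fits, and its part in the differences was not tested. Values below are log2 signals as deposited, and a difference is given ± SE with limma's adjusted p over 12393 genes. A gene was called at an adjusted p under 0.05.

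**Figure D1:**
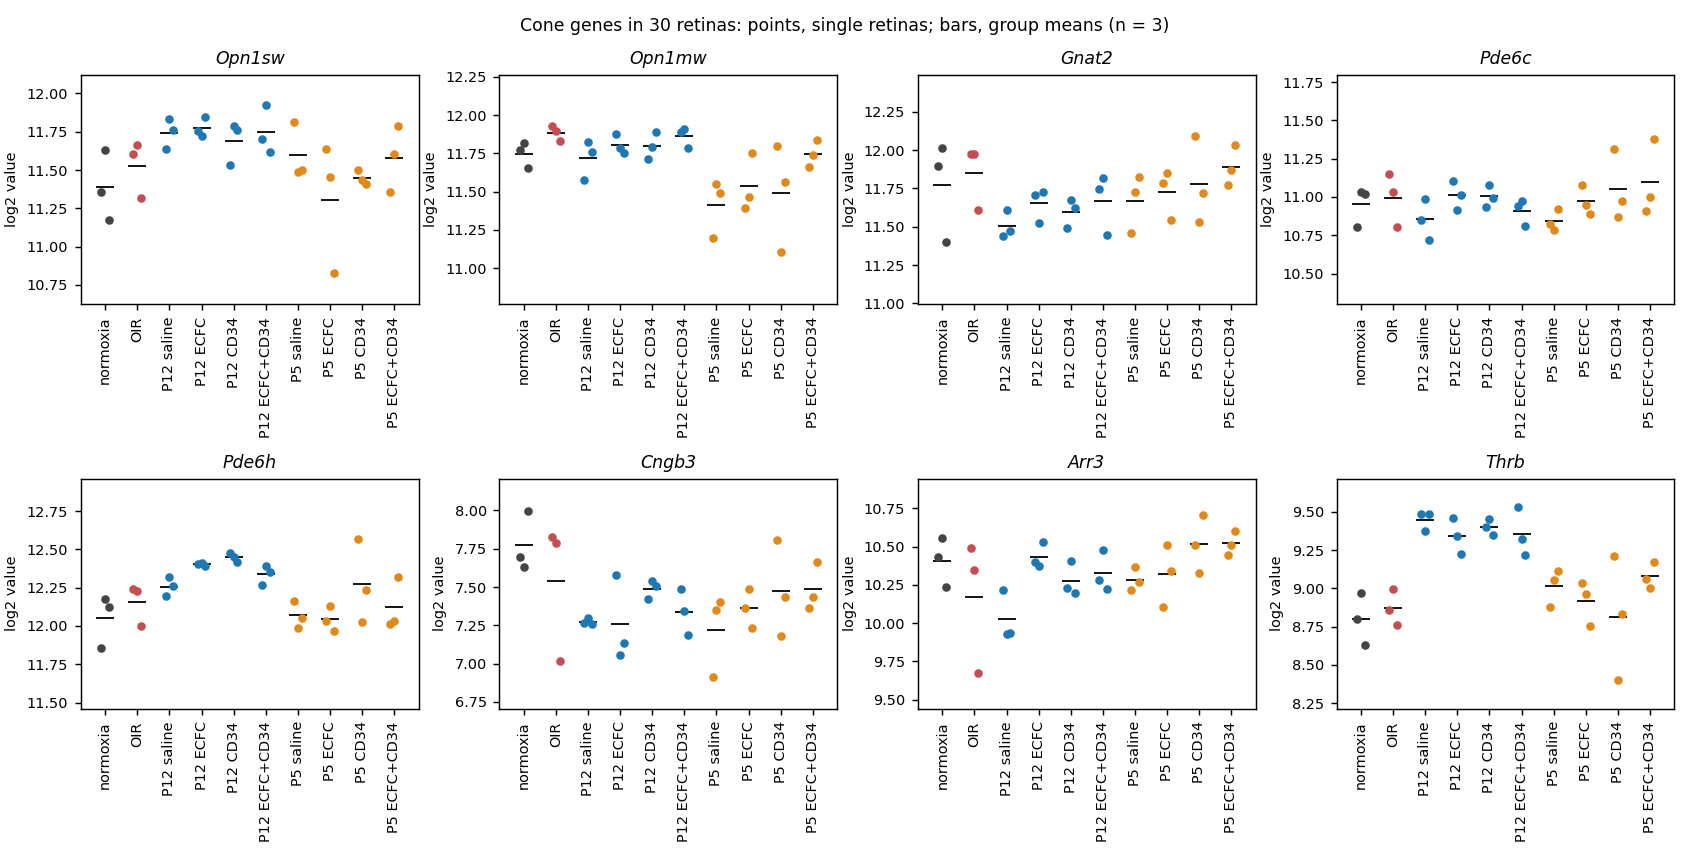
Log2 signal of the 8 measured cone genes in the 10 groups. Points are single retinas, bars are group means (n = 3), and every vertical axis spans 1.5 log2 units. For Thrb the P12 points lie at 9.22 to 9.53 and those of both untreated groups at 8.63 to 9.00.

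The first comparison asked whether OIR alone altered the cone genes of the untreated retina. None of the 8 was called in OIR against normoxia, beside 565 genes in all (4.56% of those tested), and none had an unadjusted p under 0.05, against 2455 genes in all. The cone genes' median difference was 0.08, against -0.02 for all genes.

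The opsins were near normoxic level in OIR. Opn1sw was 11.36, 11.63 and 11.18 in normoxia and 11.60, 11.66 and 11.31 in OIR. The groups overlapped, and the difference was 0.14 ± 0.16 (95% interval -0.19 to 0.47, adjusted p = 0.657). Opn1mw was 11.77, 11.82 and 11.66 in normoxia and 11.93, 11.89 and 11.83 in OIR. Every OIR value exceeded every normoxia value, but the difference of 0.14 ± 0.13 (-0.13 to 0.40) did not pass (adjusted p = 0.579).

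The signalling chain behind the opsins gave small differences with intervals on both sides of 0. Gnat2, the cone transducin alpha subunit, was 11.90, 12.02 and 11.40 in normoxia and 11.98, 11.98 and 11.61 in OIR, a difference of 0.08 ± 0.16 (-0.24 to 0.41). The catalytic cone phosphodiesterase subunit Pde6c differed by 0.04 ± 0.12 (-0.21 to 0.30) and its inhibitory subunit Pde6h by 0.10 ± 0.11 (-0.13 to 0.33). The dimmer Pde6h probe set gave 0.09 ± 0.12. Cngb3, the beta subunit of the cone channel, was 7.69, 7.63 and 7.997 in normoxia and 7.82, 7.79 and 7.01 in OIR. Its difference of -0.23 ± 0.19 (-0.62 to 0.15) came from OIR replicate 3, the other OIR values lying within the normoxia range. Thrb differed by 0.07 ± 0.14 (-0.21 to 0.36).

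Arr3, cone arrestin, gave different answers from its 2 probe sets. The brighter one was 10.43, 10.55 and 10.23 in normoxia and 10.49, 10.35 and 9.68 in OIR, a difference of -0.24 ± 0.15 (-0.55 to 0.08, adjusted p = 0.405). The dimmer one was 10.41, 10.17 and 9.72 in normoxia and 9.50, 9.46 and 8.93 in OIR, with no overlap. Its difference of -0.80 ± 0.16 (-1.14 to -0.47) passed over all 22626 probe sets (adjusted p = 0.00419). The call was lost without OIR replicate 3 (-0.62, adjusted p = 0.0583) and when only these 6 arrays were fitted (adjusted p = 0.111). The dimmer probe set is of the class that the manufacturer marks with x, whose probes may match other transcripts. The dimmer Opn1sw probe set was also higher in OIR, by 0.45 ± 0.19, without passing (adjusted p = 0.19).

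**Figure D2:**
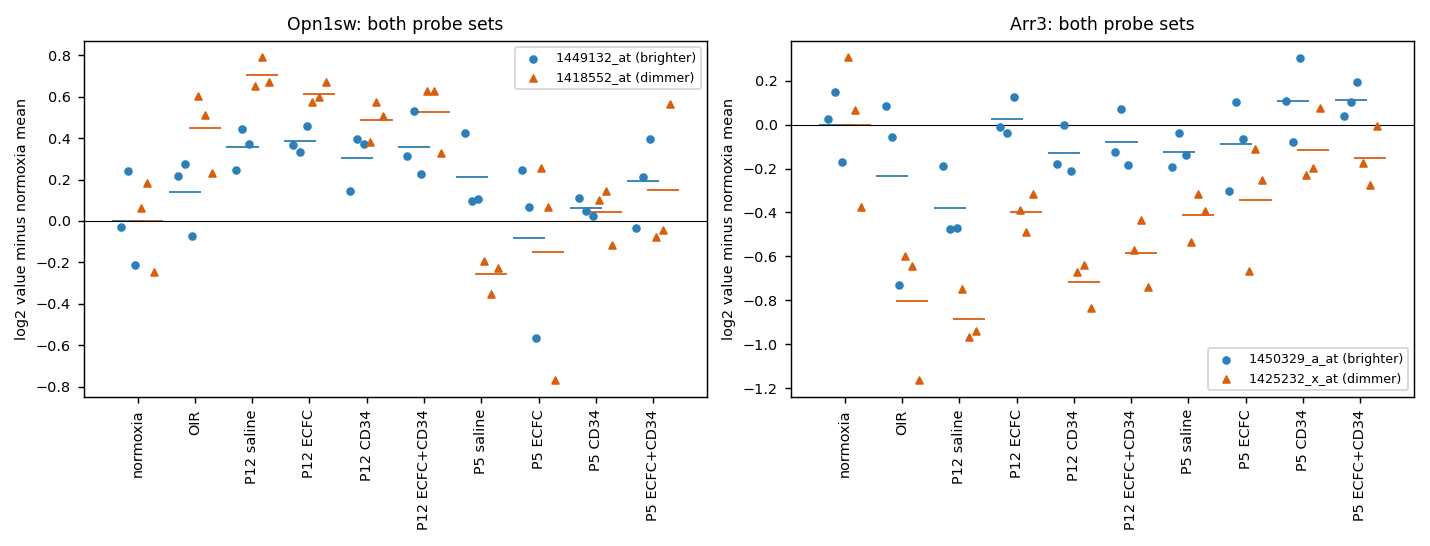
Log2 signal of the brighter and dimmer probe sets of Opn1sw and Arr3, each minus its own normoxia mean, in the 10 groups; points are single retinas. The dimmer Arr3 probe set lies below its normoxia mean in untreated OIR, where the brighter one overlaps it.

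Saline at P12 was then compared with untreated OIR, groups that differ by the injection and by the array measures given above. Thrb was higher after saline at P12 and was the only cone gene called, beside 21.3% of all genes in either direction and 5.95% higher. It was 9.49, 9.37 and 9.49 after saline at P12 against 8.86, 9.00 and 8.76 in OIR. The groups did not overlap, and the difference was 0.57 ± 0.14 (0.29 to 0.86), 1.49-fold, with an adjusted p of 0.00474. Which Thrb transcripts the probe set detects was not examined. The other 7 genes differed by -0.35 to 0.22. Gnat2, at 11.44, 11.61 and 11.47 after saline, had the largest of these (-0.35 ± 0.16, adjusted p = 0.119). Without OIR replicate 3 the count was 3, with Arr3 and Cngb3 also called, both lower.

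Thrb was also high in the other P12 groups. It was 9.46, 9.34 and 9.22 with ECFC, 9.40, 9.46 and 9.35 with CD34+ cells, and 9.53, 9.32 and 9.22 with the combination. All 12 P12 arrays lay above the 18 others, the highest of which was 9.21 (CD34+ cells at P5, replicate 1). The mean of all P12 groups exceeded OIR by 0.51 ± 0.11 (adjusted p = 0.000816), where 44% of all genes were called, 19.2% higher. The hybridisation controls and the GAPDH ratio separated the same 12 arrays. With the mean of the hybridisation controls as a covariate the Thrb difference of saline at P12 against OIR was 0.97 (adjusted p = 0.000456). As the controls did not overlap between these groups, that fit cannot tell the group from the array measure. With the lens mean as a covariate the Thrb difference was 0.55 (adjusted p = 0.00146).

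Against normoxia, saline at P12 gave 2 called cone genes, beside 27.5% of all genes, 9.93% higher and 17.6% lower. This comparison shares its saline arrays with the one above. Thrb was higher by 0.65 ± 0.14 (adjusted p = 0.00118). Cngb3 was lower by 0.50 on the log2 scale: its values of 7.27, 7.30 and 7.26 lay below all 3 normoxia values (adjusted p = 0.0479). That call was lost whichever of the 6 arrays was left out (adjusted p 0.0522 to 0.185). The dimmer probe sets, tested over 22626 probe sets, gave 0.70 ± 0.19 for Opn1sw (adjusted p = 0.00692) and -0.88 ± 0.16 for Arr3 (adjusted p = 0.000265), and both kept their calls when each array was left out.

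Saline at P5 against untreated OIR gave 1 called cone gene, Opn1mw, which was lower, beside 8.69% of all genes in either direction and 4.88% lower. Opn1mw was 11.20, 11.55 and 11.49 after saline at P5 and 11.93, 11.89 and 11.83 in OIR. The groups did not overlap, and the difference was -0.47 ± 0.13 (-0.74 to -0.20), 1.39-fold, with an adjusted p of 0.0241. The other 7 genes differed by -0.32 to 0.14. The call was lost without P5 saline replicate 1 (-0.36, adjusted p = 0.15), whichever OIR array was left out (adjusted p 0.0565 to 0.0723), with only these groups fitted (0.114) and with the lens mean as a covariate (-0.10, adjusted p = 0.813). All 12 measured lens genes and 6 of 11 pigment epithelium genes were called higher in the same comparison. Lens means were 10.9 to 13.8 after saline at P5 and 5.99 to 7.05 in OIR, without overlap. The fit with the lens covariate therefore cannot tell lens signal from the group. Of the P5 arrays, CD34+ replicate 2 and saline replicate 1 had the lowest Opn1mw (11.10 and 11.20) and lens means of 14.1 and 13.8. The next lowest, ECFC replicates 1 and 2 (11.39 and 11.47), had lens means of 9.80 and 8.95, and CD34+ replicate 3, with a lens mean of 14.02, had an Opn1mw of 11.56.

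The short-wavelength opsin depended on the probe set here. The brighter Opn1sw probe set differed by 0.07 ± 0.16 from OIR (adjusted p = 0.831), while the dimmer one was 9.10, 8.95 and 9.07 after saline at P5 against 9.90, 9.81 and 9.53 in OIR. That difference of -0.71 ± 0.19 passed (adjusted p = 0.023). It was not called in 4 of the 6 fits that left out an array (adjusted p up to 0.0857), nor with the lens mean as a covariate (-0.50, adjusted p = 0.412). Against normoxia, saline at P5 gave 0 called cone genes, beside 8.1% of all genes, and the nearest was Cngb3 (-0.55 ± 0.19, adjusted p = 0.0666).

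**Figure D3:**
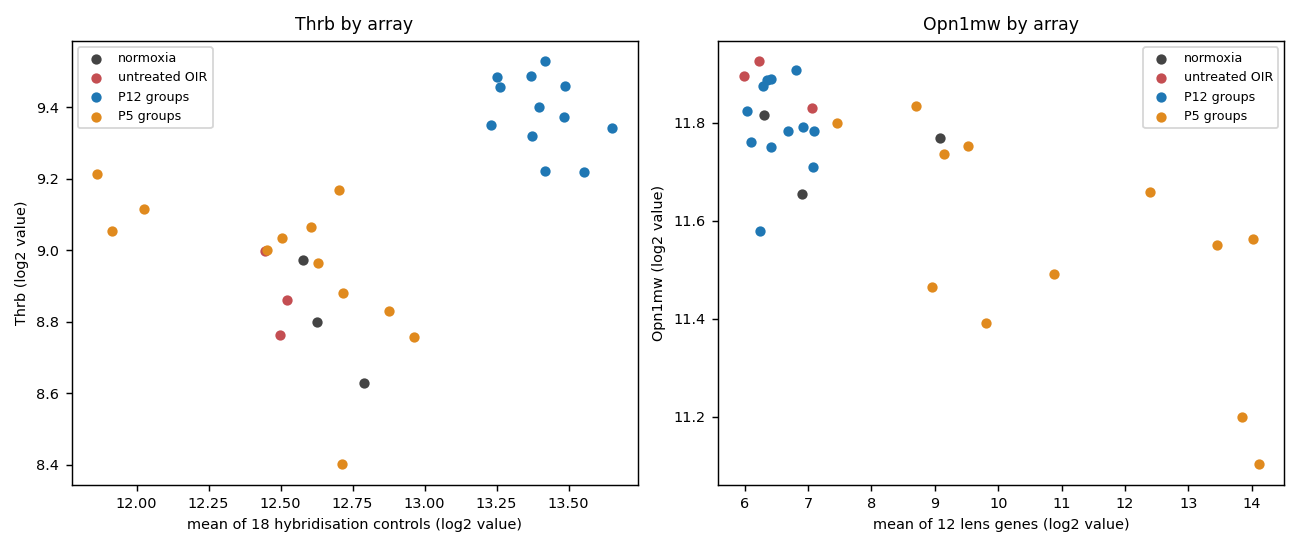
Log2 signal of Thrb against the mean of the 18 hybridisation control probe sets, and of Opn1mw against the mean of 12 lens genes, 1 point per array. The P12 arrays stand at the upper right for Thrb, with controls of 13.2 to 13.65.

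Between the days of injection, Thrb was lower after saline at P5. Saline at P5 gave 8.88, 9.05 and 9.12 against 9.49, 9.37 and 9.49 after saline at P12, a difference of -0.43 ± 0.14 (adjusted p = 0.0229). By the brighter probe sets Thrb was the only cone gene called there, beside 27.7% of all genes in either direction and 8.57% lower. The call was lost without P12 saline replicate 1 (adjusted p = 0.0695) or 3 (0.0703) or P5 saline replicate 1 (0.0875), and with the lens mean as a covariate the difference was 0.016 (adjusted p = 0.959). Among 22626 probe sets, the dimmer ones of Opn1sw and Arr3 also passed. Opn1sw was at -0.96 ± 0.19 (adjusted p = 0.000589), called whichever array was left out but not with the lens mean as a covariate (-0.75, adjusted p = 0.0865). Arr3 was at 0.47 ± 0.16 (adjusted p = 0.0327) and was called in 2 of the 6 fits that left out an array.

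Over the 12 P5 and 12 P12 arrays, 4 of 8 cone genes were lower at P5 and none higher, beside 65.1% of all genes called and 30.9% called lower. Thrb differed by -0.43 ± 0.07 (adjusted p = 1.41e-05), Pde6h by -0.23 ± 0.06 (0.000924), Opn1mw by -0.25 ± 0.06 (0.00179) and Opn1sw by -0.26 ± 0.08 (0.00801). Gnat2 (0.16 ± 0.08), Arr3 (0.14 ± 0.08), Pde6c (0.05 ± 0.06) and Cngb3 (0.05 ± 0.09) did not pass. With the lens mean as a covariate Thrb was at -0.13 (adjusted p = 0.342), Opn1sw at -0.13, and Opn1mw and Pde6h were at 0.013 and 0.039, while Gnat2, Pde6c and Cngb3 were called instead. The share of all genes called in that fit is not given here, so these calls are not read as a result about cone genes. The dimmer probe sets gave -0.64 ± 0.09 for Opn1sw (adjusted p = 4.94e-06), -0.22 ± 0.06 for Pde6h (0.00282) and 0.39 ± 0.08 for Arr3 (0.000261).

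The Pde6h values show how the days lay. The 12 P12 arrays ran from 12.19 to 12.47 and the 12 P5 arrays from 11.97 to 12.57. The highest value of all was a P5 array, CD34+ replicate 1, so the groups overlapped. By the brighter probe sets, all P5 groups against OIR gave 1 called cone gene, Opn1mw (-0.34 ± 0.10, adjusted p = 0.035). Of all genes, 10.1% were called in either direction and 6.2% lower. The Opn1mw call was lost without ECFC replicate 1 or 2 or combination replicate 1 at P5, and whichever OIR array was left out. It was also lost with these groups alone and with the lens covariate. The dimmer probe sets were fitted with each of the 15 arrays left out. Arr3 was then higher by 0.36 to 0.65 and called in 14 of the 15 fits. Opn1sw was at -0.61 to -0.42 and called in 9, and Pde6h was called in 0. These comparisons share their OIR arrays, and both contrasts of all injected groups with OIR were added after values were seen.

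**Figure D4:**
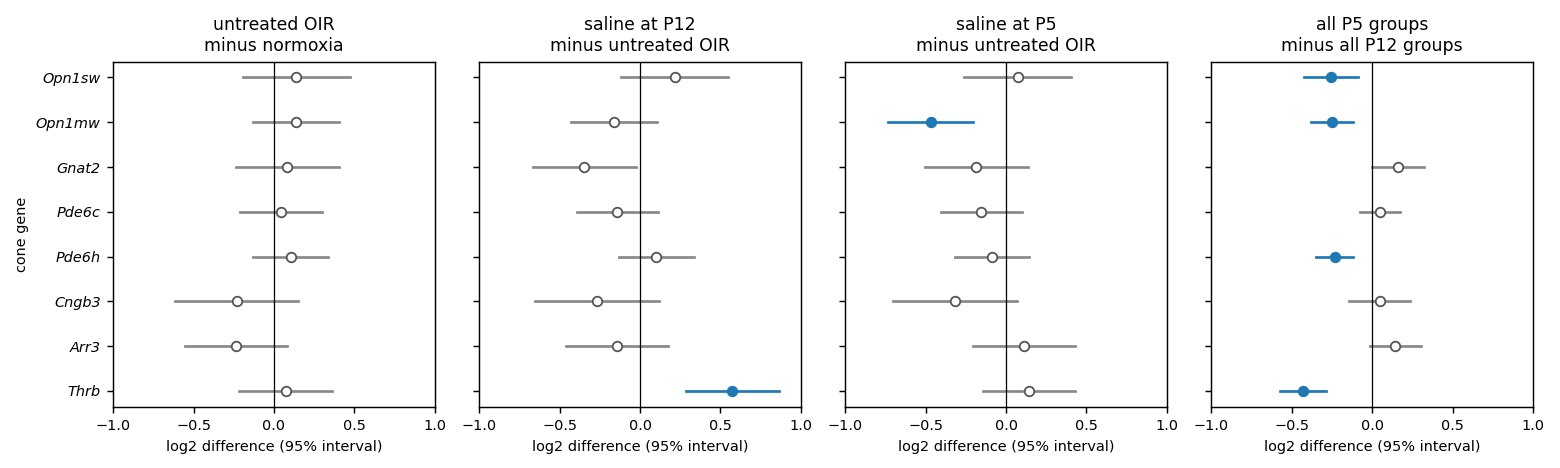
Log2 difference of each cone gene with its 95% interval in 4 comparisons, OIR minus normoxia, saline at P12 minus OIR, saline at P5 minus OIR, and all P5 minus all P12 groups. Filled points passed an adjusted p of 0.05. The count is 0, 1, 1 and 4.

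The cell treatments were each set against saline of the same day, which asks whether the cone genes differed with the cells. Of 48 values (8 genes, 6 comparisons), 0 passed limma's test and 3 had an unadjusted p under 0.05. The values ran from -0.29 to 0.40, 37 of the 48 were positive, and the 3 comparisons of a day share their saline arrays. The medians of all genes in these 6 comparisons ran from -0.03 to 0.05. The share of all genes with a positive difference is not given here, so the count is not read as a result about cone genes. The 95% intervals reached 1.54-fold lower (Opn1sw) and 1.65-fold higher (Arr3), so changes up to those sizes lie within them. The dimmer probe sets gave 0 of 18 called by limma (smallest adjusted p = 0.166).

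At P12, ECFC gave the largest value. Arr3 was 10.40, 10.37 and 10.53 with ECFC and 10.22, 9.93 and 9.94 with saline, above it on all 3 arrays. The difference of 0.40 ± 0.15 (0.09 to 0.72) did not pass over all genes (adjusted p = 0.232), where 0.0161% were called, 2 genes. With array weights it was called (adjusted p = 0.00404), as were 3296 genes in all. CD34+ cells and the combination at P12 gave 0 called genes of 12393 by limma, with 643 and 1226 at an unadjusted p under 0.05, and Arr3 was at 0.30 with the combination (adjusted p = 0.506).

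At P5, the combination had Opn1mw at 11.66, 11.74 and 11.83 against 11.20, 11.55 and 11.49 with saline. Its arrays lay above all saline arrays, but the difference of 0.33 ± 0.13 (0.06 to 0.60) did not pass (adjusted p = 0.514), in a comparison with 0 genes called by limma and 978 at an unadjusted p under 0.05. The lens means of the combination at P5 were 8.71 to 12.4 and those of saline 10.9 to 13.8. Xist was high on every combination array at P5 and, of the saline arrays at P5, on replicate 2 only. ECFC at P5 gave 0 called genes (779 unadjusted) and an Opn1sw difference of -0.29. That value rests on replicate 3, at 10.83, the lowest Opn1sw of all 30 arrays, beside 11.64 and 11.46. CD34+ cells at P5 gave 0 called cone genes beside 8.46% of all genes, with Pde6c and Pde6h at 0.21 and Thrb at -0.20.

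The 6 contrasts between cell treatments of a day gave 0 of 48 called by limma and 1 at an unadjusted p under 0.05 (-0.23 to 0.27, smallest adjusted p = 0.275). Of all genes, 7.08% were called between ECFC and CD34+ cells at P5, 7.83% between the combination and CD34+ cells at P5, and 0 in the other 4 contrasts. The 3 tests of whether a cell effect differed between P5 and P12 gave 0 of 24 by limma, also before adjustment (smallest adjusted p = 0.492), with intervals from -0.82 to 0.74. Of all genes, these 3 tests called 0.0323% for ECFC, 1.9% for CD34+ cells and 0 for the combination. A moderated F test over the 10 groups, added after values were seen, called 62.3% of all genes and, of the cone genes, Thrb (adjusted p = 0.000454), Pde6h (0.014) and Opn1mw (0.0224).

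The opsin balance, Opn1sw (brighter probe set unless stated) minus Opn1mw on the same array, was taken as a difference between arrays only. It was -0.36 ± 0.15 in OIR and -0.36 ± 0.15 in normoxia (SD, n = 3 each, exact permutation p = 1). It was 0.19 ± 0.37 after saline at P5 and 0.02 ± 0.03 after saline at P12, both above every OIR array, by 0.54 and 0.38. Each gave a two-sided exact permutation p of 0.1, the smallest that 3 against 3 arrays allow. Over all P5 and all P12 arrays the mean balance was -0.06 on both days (n = 12 each, permutation p = 0.959), while the SD was 0.38 at P5 and 0.10 at P12. ECFC at P5 replicate 3 was lowest, at -0.93, and saline at P5 replicate 1 highest, at 0.62. Without saline at P5 replicate 1 the saline difference from OIR at P5 was 0.33. With the dimmer Opn1sw probe set OIR was 0.31 above normoxia, every OIR array lying above every normoxia array (exact permutation p = 0.1). With the same probe set the P5 mean was 0.39 below the P12 mean (permutation p = 0.00321). Saline at P5 was then 0.24 below OIR (exact permutation p = 0.2), and saline at P12 was 0.42 above OIR (exact permutation p = 0.1).

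Genes that work beside the cone genes were counted from lists of textbook genes. Of 11 measured partners of cone phototransduction, 0 changed in OIR, and Gnb3, the cone transducin beta subunit, was at 0.52 ± 0.28 (adjusted p = 0.307). In saline at P12 against OIR, where 5.95% of all genes were higher, 3 of 11 were higher: Rgs9, which speeds the shut-off of transducin, by 0.59, the opsin kinase Grk1 by 0.54, and Cnnm4 by 0.54. In all P5 against all P12 groups 1 was higher and 5 lower, among them Grk1 (-0.60), beside 65.1% of all genes called. Which cells these whole-retina signals came from was not examined. Of 17 measured regulators of photoreceptor fate, 0 changed in OIR, and Crx, Nrl and Rxrg were at 0.03 ± 0.11, -0.12 ± 0.07 and -0.03 ± 0.15.

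After saline at P12, 2 of the 17 regulators were higher and 2 lower, beside 21.3% of all genes called in either direction. The nuclear receptor genes Rora and Rorb, of a family that acts in opsin expression, were higher by 0.51 and 0.52. The other thyroid receptor gene Thra was lower (-0.46 ± 0.09), and Tbx2 was lower (-0.39). Thra was thus lower where Thrb was higher, in a comparison whose groups also differ by the array measures given above. A link between Thra and Thrb was not tested. After saline at P5, Crx, the photoreceptor homeobox factor, was the only regulator called (-0.39 ± 0.11, adjusted p = 0.0247). That is 1 of 17, beside 8.69% of all genes. Rod genes gave 0 of 13 changed in OIR, 3 of 13 after saline at P12 and 1 of 13 after saline at P5, beside 4.56%, 21.3% and 8.69% of all genes. The rod transducin gene Gnat1 was at -0.04 ± 0.07 in OIR.

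Among themselves the cone genes varied loosely together. Over 30 arrays the 28 pairs had Pearson r from -0.12 to 0.67 (median 0.31), and after subtracting group means from -0.10 to 0.80 (median 0.50). Arrays of a group may share preparation, which was not examined, so these are descriptions. By correlation over the 30 arrays, the genes nearest to the mean of the standardised cone genes were Cabp4, a calcium-binding protein of the photoreceptor synapse (r = 0.795), Dusp22 (0.775), Cfap61 (0.759), Frmd4b (0.74) and Cnga1, the rod channel subunit (0.729). The nearest gene to Thrb was Csnk1g1 (0.939) and to Gnat2 Dusp7 (0.854).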

How the data were processed

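Total RNA of 1 retina per pup was isolated with the RNeasy Mini Kit, and 100 ng was amplified and biotin-labelled, per the labels' protocols. The authors deposited 1 log2 value per probe set and array, used here as deposited. The submitters' processing notes name Partek, and how values were summarised and normalized is not given in the sources used here.

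Among probe sets with 1 symbol, the brightest per gene was kept. limma 3.58.1 (R 4.3.3) fitted 1 mean per group over 30 arrays (20 residual degrees of freedom) with eBayes for 24 contrasts. Tests were two-sided, and p-values were adjusted by Benjamini-Hochberg over the 12393 genes of each contrast. The dimmer probe sets were tested among 22626. The balance used exact permutation tests, or 100000 permutations for 12 against 12 arrays. Named genes outside the cone genes are fixed ones whatever their values, those called within fixed lists, and the closest by correlation. The cone genes and lists were chosen with earlier results of these data known.

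Arrays give no counts, so their number limits the precision. Replicates are separate pups, and 0 array pairs were identical. Alternatives are quantile normalization, median centring, all probe sets, leaving out the lowest 30% of genes, trend and robust eBayes, array weights, the replicate block, lens and hybridisation covariates, only the groups compared, and leaving out each array. On simulated data with 200 changed genes, the pipeline called 29% of those changed by 0.5 (log2), 87.5% of those by 1 and 98.5% of those by 2 in OIR against normoxia. Same-numbered arrays had residual correlations from -0.45 to 0.45 and in 0 of 10 contrasts all pairs were above 0.1.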

Additional observations from a re-analysis of the deposited data

How the results depend on the processing

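Thrb in saline at P12 against OIR kept its call in every alternative run. Among these, the fit with the hybridisation covariate cannot tell that covariate from the P12 groups. The calls of Opn1mw in saline at P5 against OIR, of Thrb between the saline groups and of Cngb3 in saline at P12 against normoxia were lost when single arrays were left out. Counts of called cone genes changed as follows. Calls over all genes also moved under some of these alternatives, as given below. A changed count is therefore not read as particular to the cone genes. In all P12 groups against OIR (1 as reported), quantile normalization gave 2, trend and robust eBayes 2, median centring 3, array weights 4, the lens covariate 2 and only the groups compared 3. In saline at P5 against saline at P12 (1), median centring gave 2, array weights 4, the lens covariate 2 and the hybridisation covariate 2. Array weights gave 3 in saline at P12 against OIR (1) and 1 in ECFC at P12 against saline (0). The lens covariate and fitting only the groups compared each gave 0 in saline at P5 against OIR (1) and in all P5 groups against OIR (1). Leaving out each array gave 1 to 3 in saline at P12 and in all P12 groups against OIR, and 0 to 1 in saline at P5 against OIR, in all P5 groups against OIR and in saline at P5 against saline at P12.

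With the lens covariate the sign turned for Thrb in saline at P5 against saline at P12 (0.016). It also turned for Opn1mw (0.013) and Pde6h (0.039) in all P5 against all P12 groups. The cause was not tested, and the lens covariate and the day of injection cannot be told apart. With the dimmer Opn1sw probe set the balance differences were 0.31 for OIR against normoxia, -0.24 for saline at P5 against OIR, 0.42 for saline at P12 against OIR (0.38 with the brighter one), -0.65 between the saline groups and -0.39 between the days. Of 1755 alternative values of the 95 uncalled gene and comparison pairs, 123 changed sign and 39 passed.

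The replicate numbers did not pair the arrays. With the replicate block the counts of called cone genes were 0 in OIR against normoxia, 1 in each saline comparison, 0 in each cell comparison, 4 in all P5 against all P12 groups, and 1 in all P12 and all P5 groups against OIR, as without it.

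Over all genes, only the groups compared gave 348 called for OIR against normoxia (565) and 118 for saline at P5 against OIR (1077), where the lens covariate gave 135. Array weights gave 5300 for saline at P12 against OIR (2642) and 3296 for ECFC at P12 against saline (2). All cone genes lay above the low reference level, and the number of arrays limits the precision.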

Other observations

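Cone bipolar cells receive the cones' signal. Of 12 measured cone bipolar genes 3 were lower in OIR against normoxia, beside 4.56% of all genes: the calcium-binding protein gene Scgn (-0.64 ± 0.14, limma adjusted p = 0.00705), the kainate receptor gene Grik1 (-0.83 ± 0.20, 0.0155) and the neurokinin receptor gene Tacr3 (-1.12 ± 0.28, 0.0189). Of 9 measured horizontal cell genes, Calb1 was lower (-0.52 ± 0.14, adjusted p = 0.0363). In CD34+ cells at P5 against saline at P5, 8 of the 12 cone bipolar genes and 2 of the 9 horizontal cell genes were lower, beside 8.46% of all genes, while 0 of 8 cone genes were called. The lists' medians there were -0.70 and -0.36, against 0.16 for the cone genes and -0.03 for all genes. In the same comparison 4 of 11 pigment epithelium genes were higher, and their part in the result was not tested.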
